A study of Mus musculus with 9 samples.

Results

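The retinoic acid target and handling genes Stra8, Rarb, Stra6, Cyp26a1, Cyp26b1, Cyp26c1, Dhrs3, Crabp1 and Crabp2 were followed through sorted cells of mouse neural tube organoids. They were taken by symbol, as 9 of the 54532 genes in the count table. RNA-seq reads were counted in 9 libraries, in 3 groups of 3 biological replicates. All cells descended from R1 mouse embryonic stem cells that carry FoxA2-Venus, a fluorescent reporter on the floor plate factor Foxa2, so every group rests on a single line. The organoids grew clonally in Matrigel in N2B27 medium, the medium was changed at Day 2, and the cells were taken 66 h later and sorted for high or low fluorescence with a GFP filter set. The first group held GFP- cells and the second GFP+ cells from medium with all-trans retinoic acid (RA). The last held GFP+ cells from SAG medium. SAG is a small molecule that switches on hedgehog signalling by binding Smoothened. The RA dose is stated as 250 nM in one place and 250 µM in another, which was not resolved. The titles name SAG without a dose, and its medium is taken here to lack RA. GFP- cells from SAG medium were not analysed here, so the effect of the medium was read between the GFP+ groups and that of the sort between the RA groups. As taken here, the media differ in RA and in SAG at once. No group here had both or neither, so loss of RA and gain of SAG cannot be told apart.

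Retinoic acid is made from retinol in steps of oxidation and binds nuclear receptors of the RAR family, which sit with RXR partners on direct repeats of a short hexamer in DNA. Several of its strongest targets are parts of its own circuit: the receptor gene Rarb, the degrading enzyme Cyp26a1 and the retinaldehyde reductase Dhrs3. In the embryo RA from the somites patterns the hindbrain and spinal cord, and the Cyp26 enzymes set where it can act. Stra6 and Stra8 were named for their stimulation by RA, and Stra8 is best known as the gene that opens meiosis in germ cells.

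Total counts ranged from 25281871 to 29763765 per library. Levels are given in CPM (counts scaled to library size and TMM factor) and n = 3 for every mean ± SD. Foxa2 followed the sort, with 1.33 to 2.51 CPM in GFP- cells, 133 to 184 CPM in GFP+ cells under RA and 205 to 326 CPM under SAG. The summed level of 7 floor plate markers was 156 to 207 CPM in GFP- cells, 729 to 1024 CPM in GFP+ cells under RA and 1064 to 1321 CPM under SAG, and 6 neural progenitor markers were present in all groups (336 to 1106 CPM). The GFP- cells also held 712 to 1138 CPM of 6 pluripotent cell markers, against 39.8 to 53.6 CPM in GFP+ cells under RA and 57.2 to 222 CPM under SAG. Between the GFP+ groups 3 of these markers were higher and 3 lower under SAG (adjusted p under 0.05, edgeR). The highest SAG sum was in library 1, where Pou5f1, named after its values were seen, was at 171 CPM, against 37.4 and 39.3 CPM in libraries 2 and 3. The libraries were bulk, so fewer cells of a type and less RNA per cell cannot be told apart. All 9 retinoic acid genes passed the filter on low counts, although Cyp26c1 stayed at or below 2.55 CPM in each library.

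The sequences around transcript starts of these genes were read first, because RA receptors act through letters that can be searched for. RefSeq promoter windows (build GRCm38.p6, 250 bases before to 50 after a transcript start) were found for 8 of the 9 genes (not Crabp2), in 13 windows. The search covered both strands for the hexamers AGGTCA or AGTTCA or GGGTCA or GGTTCA, alone and as direct repeats spaced by 1, 2 or 5 bases (DR1, DR2 and DR5). A DR5 was found in Rarb and in Cyp26a1. It was present in 32 of all 32851 windows (0.0974%). The Rarb match lay 53 to 37 bases before the start of a transcript that begins inside the gene, in an annotated exon on chromosome 14, and the Cyp26a1 match lay 32 to 16 bases before the start on chromosome 19, on the opposite strand of the gene. In Stra8 the letters AGGTCA occurred at 2 places, without a repeat at any of these spacings. These lay 194 to 189 and 38 to 33 bases before a transcript start inside the gene, in annotated exon bases. A single hexamer was common, in 43.7% of windows, and was also found in Stra6. These stretches are shown 5′ to 3′ on the strand of the gene, with the matched letters in capitals.
Rarb, chr14:16575507-16575536, minus strand: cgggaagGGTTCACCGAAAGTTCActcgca
Cyp26a1, chr19:37697688-37697797, plus strand: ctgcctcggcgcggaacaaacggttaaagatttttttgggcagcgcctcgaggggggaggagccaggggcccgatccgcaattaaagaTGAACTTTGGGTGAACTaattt
Stra8, chr6:34920742-34920771, plus strand: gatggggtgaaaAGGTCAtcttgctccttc
Stra8, chr6:34920898-34920927, plus strand: gcctggggtaccAGGTCAgttttttacctg

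Windows of Cyp26b1, Cyp26c1, Dhrs3 and Crabp1 held none of these letters. The GLI motif GACCACCCA, present in 0.253% of windows, was found in none of the 13, and neither were DR1 and DR2, which were in 0.222% and 0.268% of all windows. The 110 bases before the first annotated exon base are shown for Cyp26b1 and Crabp1, since these genes were higher under SAG.
Cyp26b1, chr6:84593909-84594018, minus strand: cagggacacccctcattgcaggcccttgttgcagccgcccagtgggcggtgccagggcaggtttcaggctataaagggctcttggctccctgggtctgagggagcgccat
Crabp1, chr9:54764638-54764747, plus strand: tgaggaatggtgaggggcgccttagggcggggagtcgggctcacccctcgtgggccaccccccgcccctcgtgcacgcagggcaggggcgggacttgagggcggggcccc

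**Figure D1:**
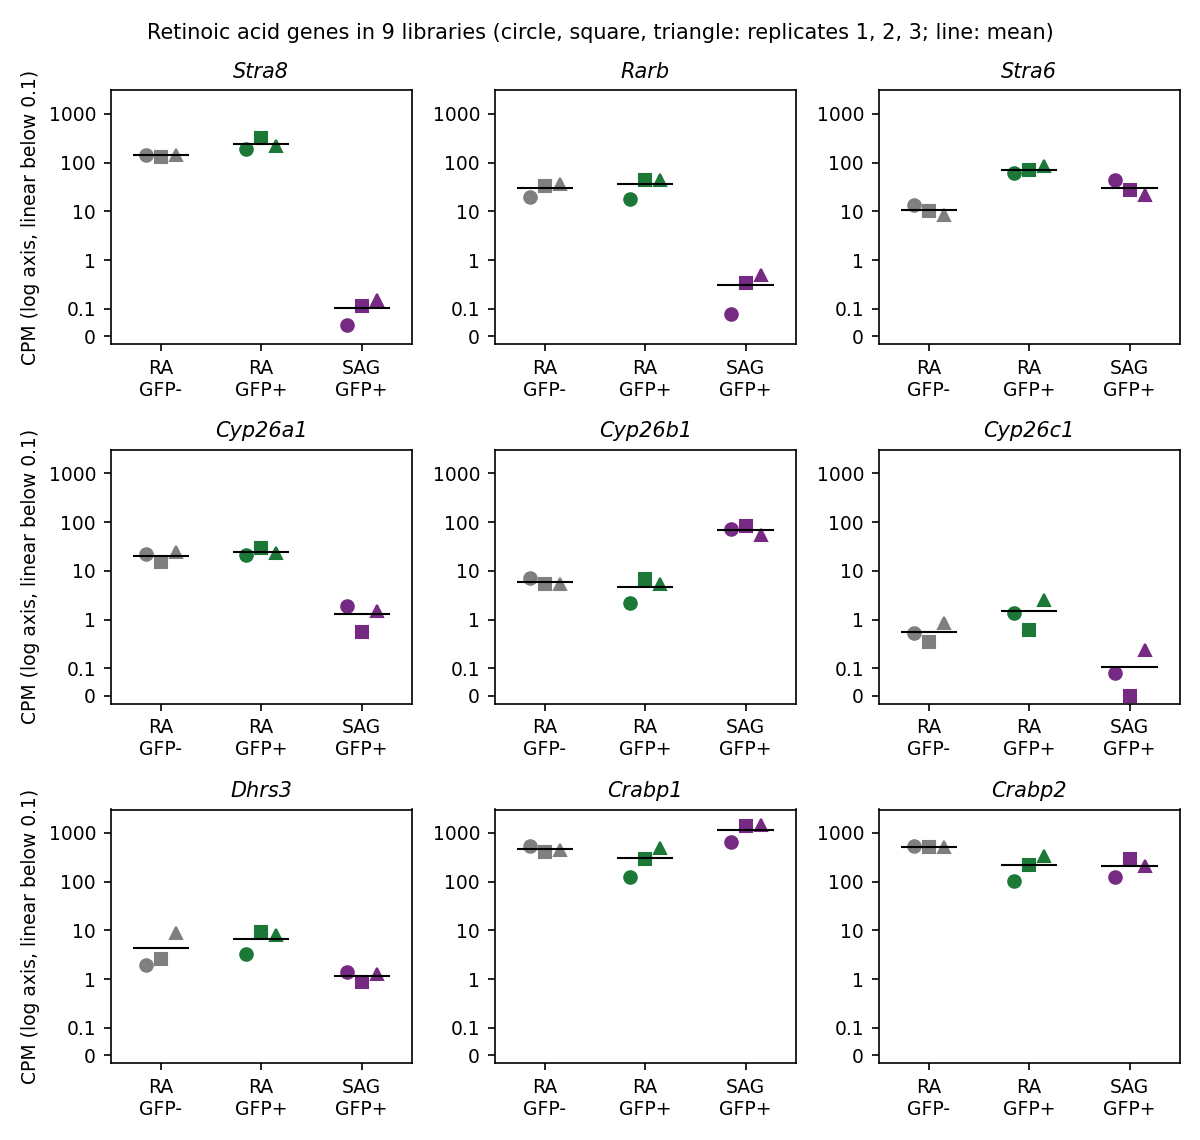
Level of each of the 9 genes in every library, in CPM on a log axis that is linear below 0.1; circles, squares and triangles are replicates 1, 2 and 3 and the line is the mean of the 3 libraries. Stra8 and Rarb are at 18.1 CPM or more in all RA libraries and at 0.506 CPM or less in all SAG libraries, while Cyp26b1 and Crabp1 lie highest in the SAG libraries.

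Between the GFP+ groups, which differ in the medium, 8 of the 9 genes differed at an adjusted p under 0.05 in edgeR's quasi-likelihood test, 2 of them higher under SAG (Cyp26b1 and Crabp1) and 6 lower (Stra8, Rarb, Stra6, Cyp26a1, Cyp26c1 and Dhrs3). Of all 16772 genes tested, 24.5% were called in this comparison, 9.78% higher and 14.8% lower. The libraries of the 2 groups did not overlap for the same 8 genes, and 42.9% of all tested genes had groups that did not overlap. The median log2 fold change over the 9 genes was -2.55, beside -0.02 over all tested genes. Within RA medium, GFP+ cells differed from GFP- cells in 3 of the 9 genes, with Stra8 and Stra6 higher and Crabp2 lower, where 16.9% of all genes were called (8.49% higher and 8.43% lower). Their median log2 fold change was 0.26. Groups did not overlap for 3 of the 9, beside 36.4% of all genes. With the RA libraries paired by replicate number, the number of genes called in the whole table went from 2838 to 3811 (all 9 libraries in the fit) or 5240 (the 2 RA groups alone), and it was 1783 without RA GFP+ library 2. The 3 calls dropped to 1, Stra6, without GFP- library 2 or RA GFP+ library 2. SAG GFP+ cells differed from RA GFP- cells in 8 of the 9 genes, with Stra6, Cyp26b1 and Crabp1 higher and Stra8, Rarb, Cyp26a1, Dhrs3 and Crabp2 lower. In that comparison 28.5% of all genes were called (12% higher and 16.5% lower), groups did not overlap for all 9 genes and for 41.1% of the table, and the median of the 9 was -1.93. It joins the sort and the medium, whose parts cannot be told apart in it. Every pair of these comparisons shares a group of libraries, so their values are set side by side and not counted as independent.

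**Figure D2:**
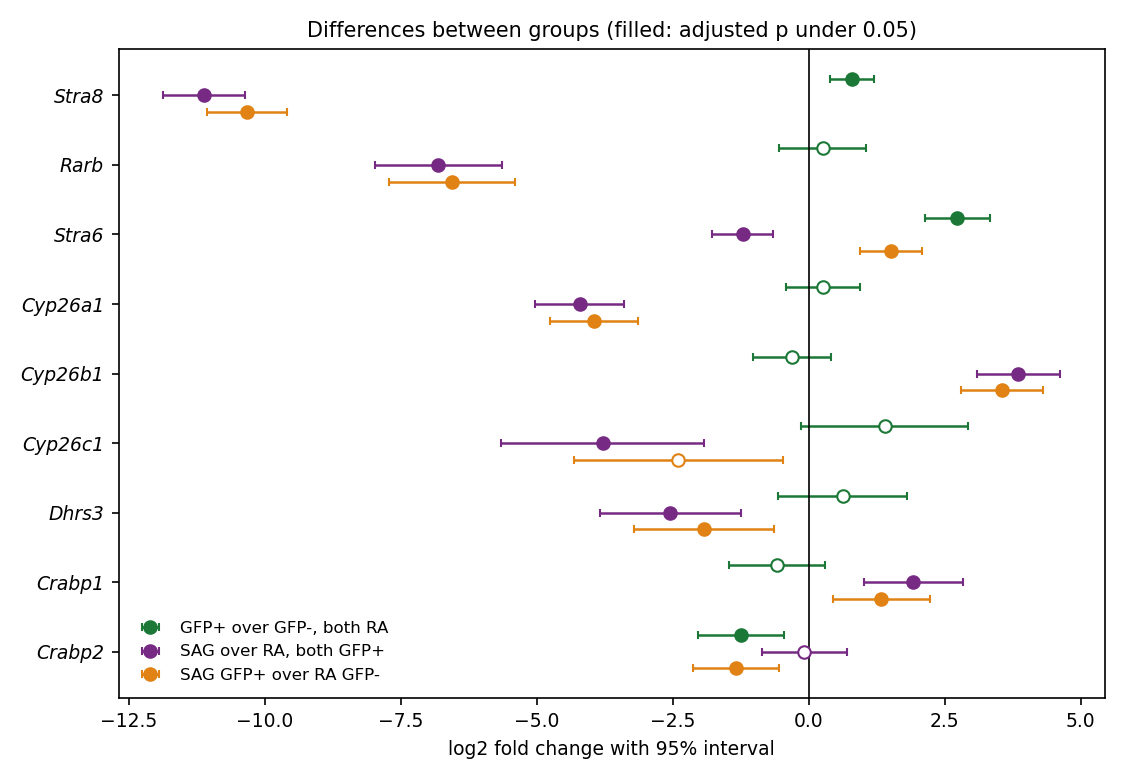
Log2 fold change of each gene in the 3 comparisons with its 95% interval, on a linear axis; filled points have an adjusted p under 0.05 in edgeR. Stra8 and Rarb lie farthest to the left in both SAG comparisons, and the intervals of the comparison within RA medium are to the right of 0 for Stra8 and Stra6.

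Stra8 (chr6:34920163-34939344, plus strand, GRCm38) was a strongly expressed gene in the RA libraries and nearly without reads under SAG. Its level was 141, 133 and 146 CPM in GFP- cells, 188, 324 and 213 CPM in GFP+ cells under RA, and 0.041, 0.112 and 0.156 CPM in GFP+ cells under SAG. The SAG values rest on 1, 3 and 4 counts, and the 3 groups did not overlap. The ratio of summed counts after scaling, RA GFP+ over SAG GFP+, was 2354 (20546 against 8 counts, exact 95% interval 1194 to 5453, covering counting error only). Its log2 fold change of -11.12 (SE 0.34, adjusted p = 1.78e-08, edgeR) was the lowest of all 16772 tested genes, and its p was the smallest. Against GFP- cells the change was -10.33 (SE 0.34, adjusted p = 1.13e-08, edgeR), the 11th lowest. Stra8 rose by 0.79 on the log2 scale from GFP- to GFP+ cells under RA (SE 0.19, adjusted p = 0.0127, edgeR). That call was lost without GFP- library 2 (adjusted p = 0.0508, edgeR) or RA GFP+ library 2 (0.52, adjusted p = 0.056, edgeR), the library with the highest Stra8 level. Those fits were unpaired. With libraries paired by number the change was 0.75 in all 9 libraries and 0.74 in the 2 RA groups alone (adjusted p = 0.00733 and 0.00317, edgeR).

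Since Stra8 is a germ cell gene, the 7 other germ cell markers listed beside it were read in the same libraries. Their summed level was 64.2 to 95.7 CPM in GFP- cells, 142 to 164 CPM in GFP+ cells under RA and 6.64 to 9.85 CPM under SAG. Of the 7, 5 fell from RA to SAG GFP+ cells and none rose, and under RA the GFP+ cells had 3 higher and 2 lower than the GFP- cells. Rec8, a meiotic cohesin, was at 36.7 ± 8.38 CPM in GFP- cells, 91.6 ± 4.06 CPM in GFP+ cells under RA and 2.15 ± 0.60 CPM under SAG, with groups in the order of Stra8. Dazl, an RNA-binding protein that germ cells need to answer RA, ran the other way under RA, from 14.5 ± 6.80 CPM in GFP- cells to 2.46 ± 0.21 CPM in GFP+ cells (log2 fold change -2.56, adjusted p = 0.00164, edgeR). Dazl and Sycp1, a protein of the synaptonemal complex, had 0 counts in all 3 SAG libraries, which allows up to 0.039 CPM over the group (3 counts). The part of germ-like cells in the Stra8 values was not tested.

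**Figure D3:**
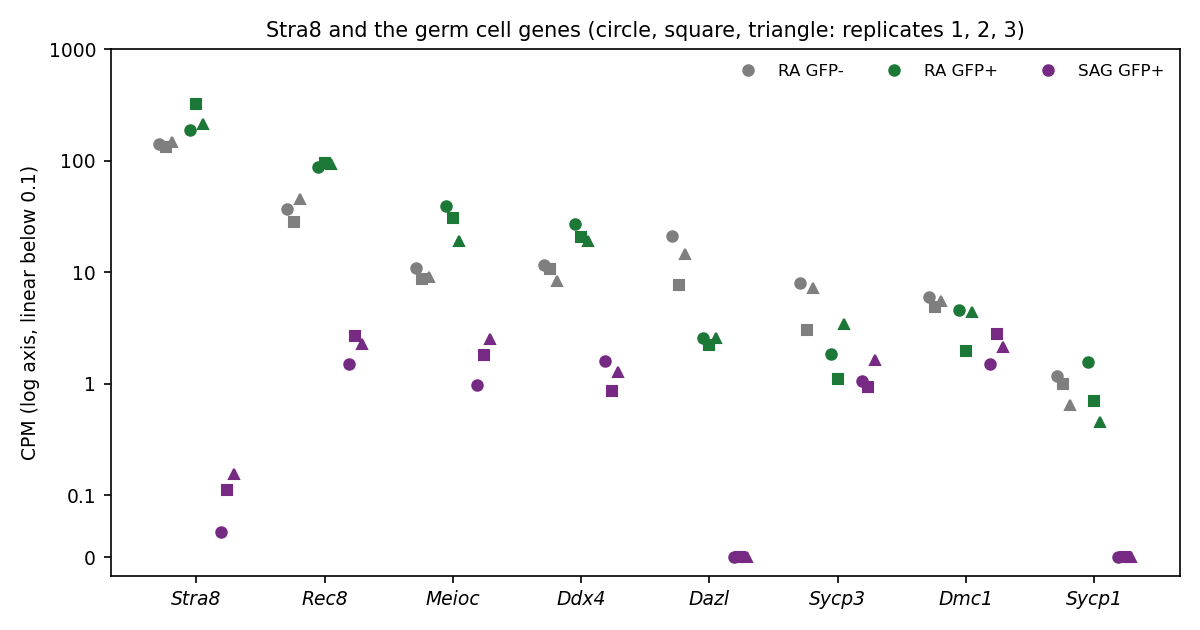
Level of Stra8 and the 7 germ cell markers in every library, in CPM on a log axis that is linear below 0.1; colours are the groups and shapes the replicates. Stra8 and Rec8 are highest in GFP+ cells under RA, Dazl is highest in GFP- cells, and Dazl and Sycp1 are at 0 under SAG.

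Rarb (chr14:16430839-16819156, minus strand) encodes a retinoic acid receptor whose own gene answers RA, and it carries the DR5 shown above. It measured 19.5, 33.5 and 36.5 CPM in GFP- cells, 18.1, 44.6 and 44.0 CPM in GFP+ cells under RA, and 0.081, 0.337 and 0.506 CPM under SAG (2, 9 and 13 counts). The RA groups overlapped, with library 1 lowest in each, and all SAG libraries lay below them. Rarb fell by 6.82 on the log2 scale from RA to SAG in GFP+ cells (SE 0.53, adjusted p = 8.8e-06, edgeR), the 72nd lowest change of all genes, and the count ratio was 117 (3051 against 24 counts, exact 95% interval 78.2 to 182). Against GFP- cells the change was -6.56 (SE 0.53, adjusted p = 7.73e-06, edgeR). Between the RA groups it was 0.25 (95% interval -0.55 to 1.05, adjusted p = 0.699, edgeR). Of the Rarb exon bases, 38.4% overlap genes on the opposite strand, mostly Top2b, a topoisomerase gene at 278 to 377 CPM in the group means. The strand setting of the counting is not given in the sources used here. The SAG libraries had 24 Rarb counts in all while Top2b was at 377 CPM in them.

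Stra6 (chr9:58063788-58153996, plus strand) encodes the membrane receptor that takes up retinol from its carrier in blood. It was at 13.5, 10.4 and 8.56 CPM in GFP- cells, 59.9, 70.4 and 84.6 CPM in GFP+ cells under RA and 43.7, 27.2 and 21.4 CPM under SAG. No groups overlapped, and the order was RA GFP+, SAG GFP+, RA GFP-, so that the GFP+ cells of either medium lay above the GFP- cells. Stra6 rose by 2.73 on the log2 scale with the sort under RA (SE 0.27, adjusted p = 7.02e-05, edgeR), the 174th highest change of all genes. It was lower under SAG than under RA in GFP+ cells (log2 fold change -1.22, SE 0.26, adjusted p = 0.00494, edgeR) and higher by 1.51 in SAG GFP+ than in RA GFP- cells (SE 0.26, adjusted p = 0.00138, edgeR). Of the 9 genes, Stra6 and Stra8 were called in all 3 comparisons. Summed endoderm markers moved in the same order under RA, at 5.21 to 6.67 CPM in GFP- and 48.0 to 70.3 CPM in GFP+ cells (4 of 5 tested were higher), but were at 3.26 to 8.02 CPM under SAG. Sox17, named after its values were seen, made up most of the RA GFP+ sum (34.6 to 55.3 CPM). Afp had 0 counts in both RA GFP- and SAG GFP+ cells, and Apoa1, with 0 under SAG, was too low to be tested. Mesenchyme markers summed to 14.0 to 18.2, 47.1 to 51.1 and 24.6 to 38.1 CPM in RA GFP-, RA GFP+ and SAG GFP+ cells. Their part in the Stra6 values was not tested.

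The Cyp26 enzymes oxidise RA to products that are cleared, and the 3 genes took different courses. Cyp26a1 (chr19:37697798-37701536, plus strand) was at 21.9, 15.1 and 24.4 CPM in GFP- cells, 20.9, 29.3 and 23.2 CPM in GFP+ cells under RA and 1.91, 0.562 and 1.48 CPM under SAG. The RA groups overlapped (log2 fold change 0.26, 95% interval -0.42 to 0.94, adjusted p = 0.632, edgeR), and every SAG library was below every RA library. From RA to SAG GFP+ cells Cyp26a1 fell by 4.22 on the log2 scale (SE 0.37, adjusted p = 1.9e-05, edgeR), and the change against GFP- cells was -3.96 (SE 0.37, adjusted p = 1.94e-05, edgeR).

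Cyp26b1 (chr6:84571414-84593908, minus strand) went the opposite way. It was at 7.20, 5.30 and 5.29 CPM in GFP- cells, 2.19, 6.72 and 5.41 CPM in GFP+ cells under RA and 73.2, 81.4 and 53.3 CPM under SAG. All 3 SAG libraries stood above the 6 RA libraries, which overlapped between the sorted populations. Cyp26b1 rose by 3.85 on the log2 scale from RA to SAG GFP+ cells (SE 0.35, adjusted p = 2.26e-05, edgeR), the 70th highest change of all genes, and was higher by 3.55 than in GFP- cells (SE 0.34, adjusted p = 2.47e-05, edgeR). Between the GFP+ groups the summed neural progenitor markers were 336 to 518 CPM under RA and 978 to 1056 CPM under SAG, and the neuron markers 49.8 to 57.8 and 266 to 366 CPM. In GFP- cells, where Cyp26b1 was low, these sums were 1002 to 1106 and 221 to 292 CPM. Their part in the Cyp26b1 values was not tested. Within RA medium the change was -0.31 (SE 0.33, adjusted p = 0.588, edgeR), and it was 0.033 without RA GFP+ library 1.

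Cyp26c1 (chr19:37685581-37693398, plus strand) is the neighbour of Cyp26a1, on the same strand and 4399 bases before it, and had the lowest CPM of the 9 genes in both RA groups. Its level was 0.530, 0.343 and 0.837 CPM in GFP- cells, 1.37, 0.605 and 2.55 CPM in GFP+ cells under RA and 0.081, 0 and 0.234 CPM under SAG (2, 0 and 6 counts, where a count of 0 allows up to 0.112 CPM). RA GFP+ and GFP- libraries overlapped, and the SAG libraries were the lowest 3. Cyp26c1 fell by 3.79 on the log2 scale from RA to SAG GFP+ cells (SE 0.85, adjusted p = 0.00733, edgeR), with a count ratio of 14.4 (126 against 8 counts, exact 95% interval 7.11 to 34.2). Against GFP- cells the change was -2.40 (SE 0.88, adjusted p = 0.0607, edgeR), which passed the threshold without SAG library 3 (-3.70, adjusted p = 0.0372, edgeR). Under RA the sorted populations differed by 1.40 (SE 0.70, adjusted p = 0.214, edgeR), or by 1.31 with the libraries paired in a fit of those 2 groups (adjusted p = 0.0371, edgeR). Both chromosome 19 genes were thus lower under SAG, and so was the other gene tested within 100 kb, Exoc6, a subunit of the exocyst (log2 fold change -0.79, adjusted p = 0.00494, edgeR).

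Per kilobase of exon, the Cyp26 transcripts added up to totals that overlapped between all 3 groups. The summed per-length level was 11.7 ± 2.60 CPM/kb in GFP- cells, 14.1 ± 2.33 CPM/kb in GFP+ cells under RA and 13.7 ± 2.49 CPM/kb under SAG, a ratio of 0.971 between the GFP+ groups. The make-up of that total turned over: Cyp26a1 was 82.6 to 90.2% of it in the RA libraries and 1.83 to 6.88% in the SAG libraries, and Cyp26b1 was 3.50 to 11.2% and 91.9 to 98.2%. Neither share overlapped between the RA and SAG libraries. Transcript totals do not give enzyme activity, which was not measured.

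**Figure D4:**
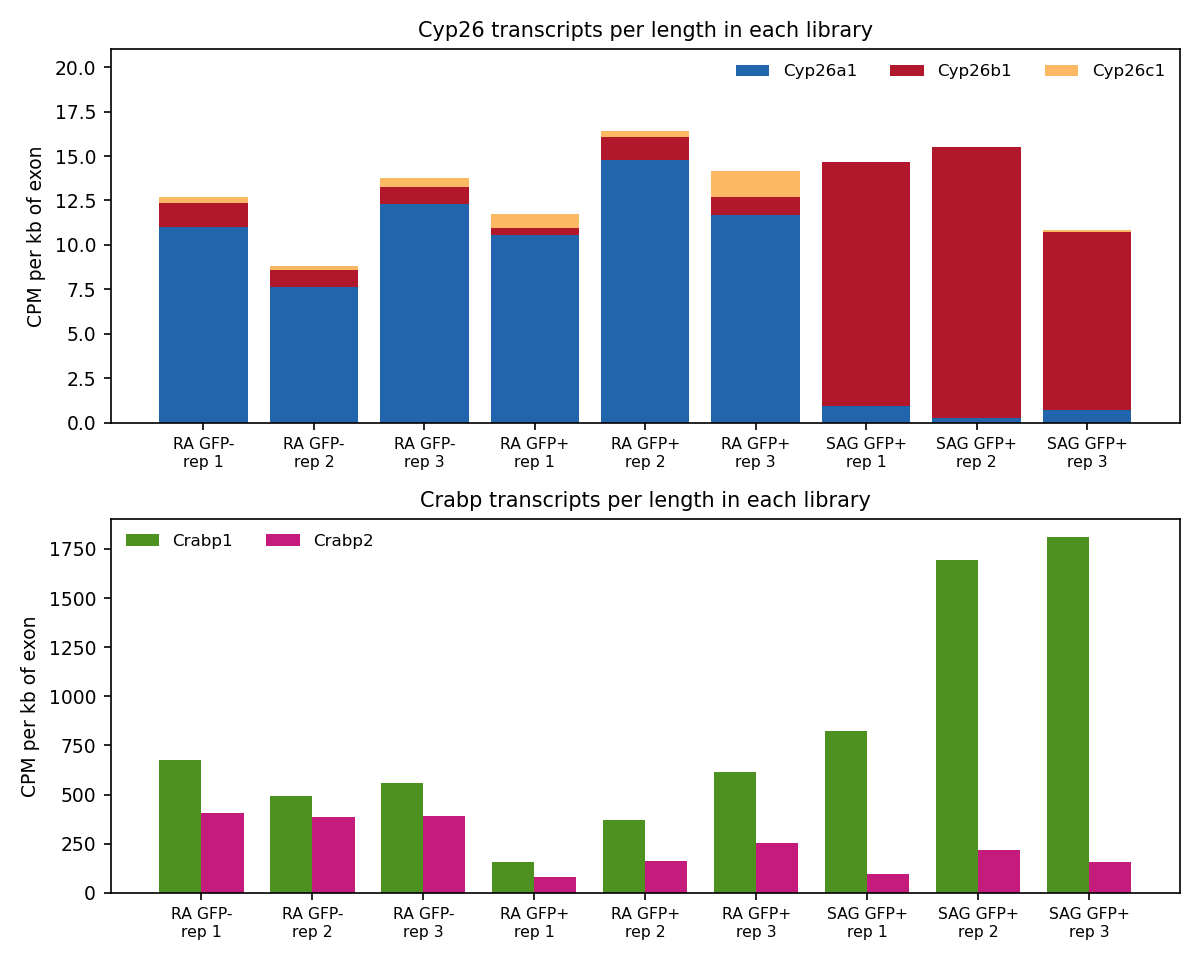
Per-length level in CPM per kilobase of exon in each of the 9 libraries, stacked for the 3 Cyp26 genes (top) and side by side for Crabp1 and Crabp2 (bottom); both axes start at 0. The Cyp26 columns overlap in height between the groups and change from mostly Cyp26a1 under RA to mostly Cyp26b1 under SAG, and Crabp1 exceeds Crabp2 in every library, most in the SAG libraries.

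Dhrs3 (chr4:144892827-144928209, plus strand) encodes a reductase that turns retinaldehyde back into retinol. It was at 1.94, 2.59 and 8.79 CPM in GFP- cells, 3.21, 9.11 and 8.09 CPM in GFP+ cells under RA and 1.38, 0.862 and 1.25 CPM under SAG. The SAG libraries were lowest, and the RA groups overlapped because GFP- library 3 stood well above the other GFP- libraries. Dhrs3 fell by 2.55 on the log2 scale from RA to SAG GFP+ cells (SE 0.59, adjusted p = 0.0087, edgeR). Against GFP- cells it was lower (log2 fold change -1.93, SE 0.58, adjusted p = 0.0292, edgeR), a call lost without GFP- library 3 (-0.96, adjusted p = 0.143, edgeR), SAG library 2 (adjusted p = 0.102, edgeR) or SAG library 3 (adjusted p = 0.0749, edgeR). Under RA the change with the sort was 0.62 (SE 0.54, adjusted p = 0.496, edgeR), and 1.59 without GFP- library 3 (adjusted p = 0.0455, edgeR).

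Crabp1 and Crabp2 encode the small proteins that hold RA in the cytoplasm. Crabp2 is known to hand RA to the receptors, and Crabp1 is linked to its sequestration and breakdown. Crabp1 (chr9:54764748-54773110, plus strand) was at 541, 395 and 447 CPM in GFP- cells, 126, 296 and 494 CPM in GFP+ cells under RA and 659, 1360 and 1453 CPM under SAG. The SAG libraries were highest, and the RA GFP+ libraries spread widely and overlapped the GFP- ones. Crabp1 rose by 1.92 on the log2 scale from RA to SAG GFP+ cells (SE 0.42, adjusted p = 0.00591, edgeR). In the same comparison 5 of 6 neural progenitor markers were higher and 1 lower (median log2 fold change 1.67), and 3 of 4 neuron markers were higher (median 2.29). Their part in the Crabp1 values was not tested. It was higher by 1.33 in SAG GFP+ than in RA GFP- cells (SE 0.41, adjusted p = 0.0309, edgeR), and this call was lost without any of GFP- libraries 1 to 3 (adjusted p = 0.0589, 0.0958 and 0.0695, edgeR), SAG library 2 (adjusted p = 0.0866, edgeR) or SAG library 3 (adjusted p = 0.1, edgeR). With the sort under RA the change was -0.59 (SE 0.40, adjusted p = 0.368, edgeR), which passed the threshold only when low genes were kept in the fit (adjusted p = 0.0265, edgeR).

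Crabp2 (chr3:87948666-87953376, plus strand) differed with the sort instead. Its level was 538, 510 and 519 CPM in GFP- cells, 103, 216 and 338 CPM in GFP+ cells under RA and 126, 285 and 209 CPM under SAG. The 3 GFP- libraries lay close together and above all 6 GFP+ libraries, which overlapped between the media. Crabp2 was lower in GFP+ than in GFP- cells under RA (log2 fold change -1.25, SE 0.36, adjusted p = 0.0342, edgeR), but without GFP- library 1, 2 or 3 the adjusted p in edgeR was 0.0856, 0.0719 or 0.068, without RA GFP+ library 1 it was 0.0697 (-0.92) and without library 2 it was 0.104. Those fits were unpaired. With libraries paired by number the change was -1.41 in all 9 libraries or the 2 RA groups alone (adjusted p = 0.00577 and 0.00201, edgeR). SAG GFP+ cells were lower than GFP- cells (log2 fold change -1.34, SE 0.36, adjusted p = 0.0175, edgeR), a call lost without GFP- library 1 (adjusted p = 0.0523, edgeR) or SAG library 3 (adjusted p = 0.0545, edgeR). Between the GFP+ groups the change was -0.08 (95% interval -0.86 to 0.70, adjusted p = 0.893, edgeR), which leaves room for changes of either sign. Per length, the ratio of Crabp1 to Crabp2 was 1.66, 1.27 and 1.42 in GFP- cells, 2.01, 2.26 and 2.41 in GFP+ cells under RA and 8.62, 7.86 and 11.4 under SAG. The ratio did not overlap between any of the groups.

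Markers of other cell types moved beside the Crabp2 difference. GFP+ cells under RA had less of the neural progenitor markers than GFP- cells (6 of 6 lower) and of the neuron markers (4 of 4 lower), with the sums given beside Cyp26b1. Under SAG both sums were above those of GFP+ cells under RA, while Crabp2 was at 126 to 285 CPM. Pluripotent cell markers were lower in GFP+ cells of either medium than in GFP- cells (6 of 6 in each), with the sums given above. Their part in the Crabp2 values was not tested.

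Ranked per kilobase of exon, Crabp1 was the most abundant of the 9 genes in every group, with means of 574, 381 and 1443 CPM/kb in RA GFP-, RA GFP+ and SAG GFP+ cells, followed by Crabp2. In GFP- cells the per-length order went on with Stra8, Cyp26a1, Rarb, Stra6, Dhrs3, Cyp26b1 and Cyp26c1, and neighbours in it did not overlap except Stra6 with Dhrs3 and Dhrs3 with Cyp26b1. In GFP+ cells under RA, Crabp1, Crabp2 and Stra8 overlapped in turn (381 ± 230, 166 ± 88.8 and 134 ± 40.0 CPM/kb), and Stra6 stood level with Cyp26a1 at 12.3 ± 2.13 CPM/kb. Under SAG, Cyp26b1 followed Crabp2 at 13.0 ± 2.70 CPM/kb, and Stra8 was last at 0.057 ± 0.032 CPM/kb, in a range that overlapped Rarb. Among the RA GFP+ libraries, library 1 held the lowest CPM for 8 of the 9 genes, Cyp26c1 being the exception, and no library of the other groups was lowest for more than 5.

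Partners of these genes in the pathway were read from lists. Of 5 retinoid receptor genes other than Rarb, Rxrg was the only one called between the GFP+ groups, rising from 0.419 ± 0.289 CPM under RA to 5.67 ± 3.98 CPM under SAG (log2 fold change 3.76, adjusted p = 0.00271, edgeR). Rarg, at 87.2 ± 25.4 CPM in GFP- cells, was lower in GFP+ cells under RA (-0.77, adjusted p = 0.041, edgeR) and in those under SAG (-0.85, adjusted p = 0.0173, edgeR). The first of these calls was lost without 6 of the 9 libraries in turn (adjusted p up to 0.163, edgeR). The second was lost without 3 of them (up to 0.083). Those fits were unpaired. With libraries paired by number the first change was -0.74 in all 9 libraries and -0.75 in the 2 RA groups alone (adjusted p = 0.00352 and 0.000518, edgeR). Rara, a main receptor of RA named after its values were seen, stayed between 68.0 and 99.0 CPM in 8 libraries and at 53.6 CPM in SAG library 1. The list median was -0.18 with the sort under RA and -0.09 with the medium, beside -0.02 over all genes in each.

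Genes that make RA or handle retinol passed the filter for 5 of 9. With the sort under RA, 2 were higher and none lower: Rdh10, which oxidises retinol to retinaldehyde (10.9 ± 3.14 to 34.2 ± 9.61 CPM, log2 fold change 1.65, adjusted p = 0.0032, edgeR), and Aldh1a1, which makes RA from retinaldehyde (0.323 ± 0.035 to 2.95 ± 2.39 CPM, 3.18, adjusted p = 0.00736, edgeR). The list median was 1.65. Aldh1a2, also on the list and named after its values were seen, went the other way without a call. It was at 1.92 ± 0.38 CPM in GFP- cells and 0.493 ± 0.366 CPM in GFP+ cells (-1.94, adjusted p = 0.121, edgeR). From RA to SAG GFP+ cells none was higher and 2 were lower (median -0.86), among them Aldh1a1 (-3.79, adjusted p = 0.00263, edgeR). Rdh10 was also higher in SAG GFP+ than in RA GFP- cells (2.11, adjusted p = 0.000412, edgeR). Aldh1a3, Dhrs9, Lrat and Bco1 were too low to be tested.

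Other targets were read from a list of 10 genes known to rise with RA. From RA to SAG GFP+ cells 5 of them were lower and 1 higher, with a median of -1.44. The higher gene was Hoxb1, a hindbrain Hox gene named here after its values were seen, at 13.0 ± 9.30 CPM under RA and 71.0 ± 37.9 CPM under SAG (2.45, adjusted p = 0.00902, edgeR). With the sort under RA, 3 were higher, among them Zfp703 (1.78, adjusted p = 0.000451, edgeR), and 1 was lower, and the median was 0.78. In SAG GFP+ against RA GFP- cells 3 were higher and 1, Hic1, was lower (-4.11, adjusted p = 0.000885, edgeR). Hic1 was low throughout, at 1.87 ± 0.40 CPM in GFP- cells and 0.104 ± 0.091 CPM under SAG (4, 4 and 0 counts). 

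Among 6 receptor cofactors, 2 were higher and 1 lower in the GFP+ cells under RA than in the GFP- cells under RA, and 2 were higher and 1 lower in the GFP+ cells under SAG than in those GFP- cells. The lower gene was the coactivator Ncoa3 each time (-0.75 and -1.16, adjusted p = 0.00143 and 4.41e-05, edgeR). From RA to SAG GFP+ cells 1 of the 6 was called, Ncoa3, which was lower (-0.40, adjusted p = 0.0307, edgeR), a call lost without 5 of the libraries in turn (adjusted p up to 0.152). Fabp5, another carrier of RA, was lower in GFP+ than in GFP- cells under RA (-0.73, adjusted p = 0.0412, edgeR), as Crabp2 was. In unpaired fits this call was lost without 7 of the libraries in turn (adjusted p up to 0.141, edgeR). The median of the cofactors was 0.24 with the sort and -0.04 with the medium.

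The DR5 letters were looked up across the table as well. Of the 31 genes with a DR5 in a RefSeq window, 6 were tested, and between the GFP+ groups Rarb and Cyp26a1 were lower and the other 4 (Cfap45, Blvrb, Prokr2 and Syndig1) were not called. Their median log2 fold change was -0.42. With the sort under RA, where neither Rarb nor Cyp26a1 was called, Prokr2 was higher in GFP+ cells (1.95, adjusted p = 0.0242, edgeR) and Blvrb and Syndig1 lower (-1.17 and -2.96, adjusted p = 0.00691 and 0.00452, edgeR), while Cfap45 was not called (1.07, adjusted p = 0.21, edgeR). In SAG GFP+ against RA GFP- cells 4 of the 6 were lower and 1 higher, with a median of -1.30, where 16.5% of all genes were lower and 12% higher. Rarb and Cyp26a1 belong to the 9 genes, so this count and median partly repeat their values. The lower genes were Rarb, Cyp26a1, Blvrb (-0.94, adjusted p = 0.014, edgeR) and Syndig1 (-1.66, adjusted p = 0.0365, edgeR), and the higher one was Prokr2 (1.58, adjusted p = 0.0435, edgeR). Cfap45, Blvrb, Prokr2 and Syndig1 were named after their values were seen.

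Genes with a pattern most like each of the 9 were found by Pearson's r of log2 CPM over the 9 libraries, among 11818 genes that reached 5 CPM in a group. The libraries form 3 groups, so a high r mostly repeats the order of the groups, and it is given as a description. Stra8 was closest to Arhgap9 (r = 0.994) and Sohlh2 (r = 0.993), a germ cell transcription factor at 30.9, 47.8 and 0.077 CPM in the means of RA GFP-, RA GFP+ and SAG GFP+ cells. Rarb was closest to Grasp (r = 0.989) and to Stra8 (r = 0.988), the only pair within the 9 genes. Cyp26a1 was closest to Frrs1 and Als2cl (r = 0.990 for both), and Cyp26b1 to Cabp7 (r = 0.989), a calcium-binding protein gene at 4.33, 2.96 and 67.2 CPM, and Tmem229a (r = 0.977). Crabp1 was closest to Hoxb2 (r = 0.983), at 44.0, 31.0 and 110 CPM, and Cntn3 (r = 0.980). For Stra6 the nearest were Kif26b (r = 0.980) and Cd36 (r = 0.973), for Crabp2 Rtl5 (r = 0.967) and Fam129a (r = 0.956), for Dhrs3 Dgkz (r = 0.967) and Ryr1 (r = 0.955), and for Cyp26c1 Borcs6 (r = 0.959) and Arhgef16 (r = 0.958).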

How the data were processed

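Poly(A) RNA of 9 libraries was measured with a directional kit, per the labels' protocols. The authors deposited raw counts per Ensembl gene, and the submitters' processing notes name the build GRCm38 with featureCounts (Subread 1.6.2), Bowtie2 2.3.4.1 and Trim Galore 0.5.0. Not given in the sources used here are the annotation release, the strand setting and how reads with several matches were handled. Symbols (54495 of 54532 genes), positions and exon lengths came from GENCODE M21, and promoters from RefSeq. The tests used edgeR 4.0.16 under R 4.3.3, with all 9 libraries and their 3 group means in the model, TMM scaling (factors 0.972 to 1.029), filterByExpr with a minimum count of 10 (16772 genes kept), quasi-likelihood tests and Benjamini-Hochberg adjustment over all tested genes, with calls at an adjusted p under 0.05. The script was tested on simulated data. Over all tested genes the median log2 fold change was -0.018 with the sort under RA, -0.017 with the medium and -0.009 across both. Log2 CPM for likeness used a prior count of 2. P-values measure the spread between 3 biological replicates per group, and intervals of count ratios cover counting error only.

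Named are the 9 genes, Foxa2, the 2 called genes with the smallest adjusted p of each pathway list and comparison, and the 2 genes most like each of the 9, besides genes said to be named after their values were seen. Germ cell markers and genes overlapping or neighbouring the 9 were also named after their values were seen. Results for a few of the pathway genes are not reported here. The 9 genes and all lists were chosen with earlier results of these data known. Alternatives were DESeq2 1.42.0, RLE scaling, no filter, a filter of 1 CPM in 3 libraries, fits of the compared groups only, a replicate block, and leaving out each library. Deviations from group means of same-numbered RA libraries correlated across genes (r = 0.273, 0.307 and 0.347), so the numbers were taken to pair the GFP- and GFP+ libraries under RA. This pairing comes from the data and the replicate numbers in the titles, not from a statement in the labels. The main tests leave it out, so values for the sort under RA are unpaired unless a pairing is named.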

Additional observations from a re-analysis of the deposited data

How the results depend on the processing

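From RA to SAG GFP+ cells, the 8 calls among the 9 genes kept their direction and side of the threshold in every alternative run, except that Cyp26c1 was not tested under the stricter filter. Crabp2, not called there, changed sign to 0.014 with a replicate block in a fit of the 2 groups, and ran from -0.42 to 0.37 when a library was left out (0.37 without RA GFP+ library 3, 0.19 without SAG library 1). With the sort under RA, Cyp26b1, not called, ran from -0.63 to 0.033 when a library was left out (0.033 without RA GFP+ library 1). In that comparison the number of genes called was 5240 with the replicate block in the 2 groups and 1783 to 3368 when a library was left out (1783 without RA GFP+ library 2), and 1 to 3 of the 9 genes were called (1 without GFP- library 2 or RA GFP+ library 2). Over the 9 genes, 132 of 143 alternatives with the sort, 140 of 143 with the medium and 127 of 141 across both kept direction and side of the threshold. SAG GFP+ against RA GFP-, Cyp26c1 was called with DESeq2 (adjusted p = 0.0249), without the filter (0.012), with the replicate block in all 9 libraries (0.0123) and without SAG library 3 (0.0372). Same-numbered SAG libraries correlated with RA GFP+ by r = 0.111, -0.082 and 0.182 and with GFP- by 0.175, -0.022 and 0.242. For SAG library 3 the same number gave the highest r with both RA groups, for library 1 only with GFP-, and for library 2 with neither. Whether the SAG libraries share more than a number with the RA libraries was thus not settled. The block moved calls to 5368 from 4117 and to 6178 from 4787 in all 9 libraries. Apart from Cyp26c1, which it also brought to a call with the sort under RA in the 2 groups (adjusted p = 0.0371, edgeR), the block changed no call of the 9 genes. The causes of these changes were not tested. The higher Foxa2 in SAG than in RA GFP+ cells (0.65, adjusted p = 0.0497, edgeR) was lost in 6 of the fits without a library. With 8 Stra8, 24 Rarb and 8 Cyp26c1 counts over the SAG libraries, depth limits the size of those changes.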
